A study of Mus musculus with 8 samples.

Results

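The genes described here encode the subunits of the mitochondrial respiratory chain and of the ATP synthase that it feeds. They were chosen by symbol among protein-coding genes: every symbol starting with mt-, the Nduf subunits of complex I lettered a, b, c, s or v, the 4 Sdh genes of complex II, the Uqcr genes of complex III, the Cox4 to Cox8 families of complex IV, and the Atp5 genes of complex V. This rule found 98 of the 55487 genes in the table, of which 13 are encoded by mitochondrial DNA and 85 by the nucleus. The mitochondrial genes comprise 7 members of complex I, 1 of complex III, 3 of complex IV and 2 of complex V. The nuclear genes comprise 37 of complex I, 4 of complex II, 8 of complex III, 18 of complex IV and 18 of complex V, where Atp5o has 2 identifiers. Selection by symbol leaves out Cyc1 and Ndufab1, which are subunits too. It also places Ndufa4, biochemically a subunit of complex IV, in complex I and counts Atp5s, a factor and not a subunit of the synthase, in complex V.

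Complexes I and II pass electrons from NADH and succinate to ubiquinone, complex III passes them to cytochrome c, and complex IV passes them to oxygen. Complexes I, III and IV pump protons across the inner mitochondrial membrane, and complex V uses the return flow to make ATP. Complexes I, III, IV and V are built from products of both genomes: mitochondrial DNA is transcribed as long polycistronic RNAs by its own polymerase, while the nuclear subunits are transcribed singly, translated in the cytosol and imported. In early B cell development, cycling precursors are known to respire more than resting ones.

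The samples were mouse cells that the labels call pro-B cells, early B lineage precursors, and their RNA had been sequenced. There were 4 libraries labelled with the genotype CD25_KO, called labelled knockout here, and 4 labelled WT, and the labels gave no strain, age, sex or deletion strategy. The comparison was set up to show which transcripts differ between pro-B cells without and with CD25, the high-affinity subunit of the receptor for interleukin-2. The labels do not say whether the samples of a group came from different animals, and the p-values therefore measure only spread between samples, some of which may be technical. Fragment counts summed to between 43974037 and 57988772 per library.

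The gene of the label, Il2ra, was read first. It had 144.7, 168.3, 243.7 and 168.3 CPM (fragment counts scaled to a common library size) in labelled knockout libraries 1 to 4, against 200.2, 216.4, 215.6 and 140.4 CPM in WT libraries 1 to 4. The groups overlapped, and the log2 fold change was -0.09 ± 0.19 (SE; adjusted p = 0.849, edgeR quasi-likelihood test). Il2ra RNA thus does not show the labelled genotype. A sum over exons would miss a deletion that leaves most of them transcribed, but the labels do not describe the deletion. Whether the genotype labels are correct was not tested. All 13 pro-B markers were detected, and Kit was the lowest at 1.2 ± 0.488 CPM in labelled knockout and 1.76 ± 1.06 CPM in WT libraries (SD, n = 4 each). Of the 13, 9 had lower values in the labelled knockout libraries, and none passed the adjusted p. The surrogate light chain genes Vpreb1 and Igll1, which mark early precursors, had log2 fold changes of -0.86 ± 0.38 and -0.91 ± 0.40, and Dntt, an enzyme of V(D)J joining, had -0.91 ± 0.50, while the B lineage factor Ebf1 had 0.40 ± 0.13 (SE). How these values relate to the member values was not tested. Labelled knockout 2 and 4 and WT 2 held 496 to 506 CPM of Y-linked RNA, while the other 5 libraries held 0 to 2.73 CPM.

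Most respiratory chain genes had somewhat lower values in the labelled knockout libraries than in the WT libraries, with similar median fold changes for both genomes, and no single gene passed the test. After removal of genes with low counts, 93 of the 98 members were tested among 18884 genes. Of these, 78 had lower values in the labelled knockout libraries, where 49.6% of all tested genes were lower. The median log2 fold change was -0.23 over the 13 mitochondrially encoded members and -0.29 over the 80 nuclear members tested, against 0.00 over all genes tested. As a share of the counts the genomes were less alike: the mitochondrial members took 2.31 ± 0.305% in labelled knockout and 2.77 ± 0.139% in WT libraries, and the nuclear members 1.08 ± 0.079% and 1.15 ± 0.0875% (SD, n = 4 each). With edgeR's quasi-likelihood test and Benjamini-Hochberg adjustment over all genes tested, 0 members passed an adjusted p of 0.05, as did 0.0% of all genes. At an unadjusted p under 0.05, 46 members were lower and 2 were higher, where 7.11% of all genes tested were lower and 5.53% higher. DESeq2 and limma-voom also called 0 members. The count at the unadjusted p, 48 members in either direction with all libraries, depended on which library was left out. Omitting labelled knockout 1, labelled knockout 3, WT 2 or WT 3 lowered it to 19, 19, 15 and 14. Dropping labelled knockout 2 or 4 gave 51 and 42 members, and dropping WT 1 or WT 4 gave 52 and 49. Whether all genes lost calls alike in these reduced fits was not tested.

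Values spread widely within the groups, and the groups overlapped. A library score, the mean deviation of the members' log2 CPM from their 8-library mean, was -0.20, 0.13, -0.26 and -0.15 for the mitochondrially encoded members in labelled knockout 1 to 4, against 0.08, 0.09, 0.25 and 0.06 in WT 1 to 4. For the nuclear members it was -0.17, 0.08, -0.29 and -0.01 in labelled knockout 1 to 4, against -0.11, 0.05, 0.25 and 0.19 in WT 1 to 4. The mitochondrial score averaged -0.12 ± 0.17 in labelled knockout and 0.12 ± 0.09 in WT libraries. The nuclear score averaged -0.10 ± 0.16 and 0.10 ± 0.16 (SD, n = 4 each). Labelled knockout 1 and 3 were low and WT 3 was high in both scores. Labelled knockout 3 was the lowest library for 7 of the 13 mitochondrial and 48 of the 80 nuclear members, and WT 3 was the highest for 12 and 48 of them. In bulk RNA, fewer cells of a type and less RNA per cell cannot be told apart.

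**Figure D1:**
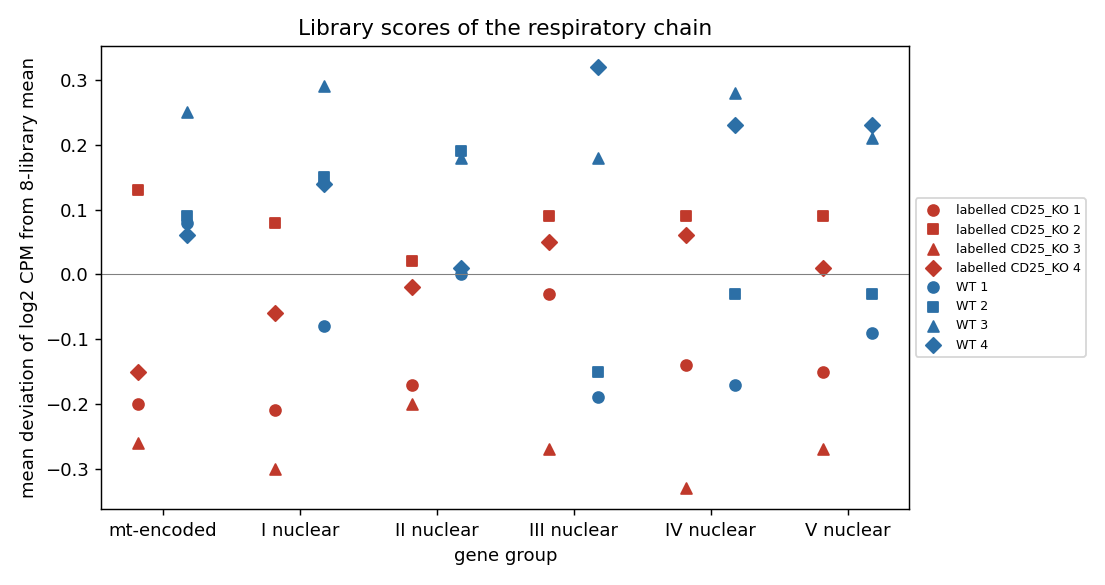
Mean deviation of log2 CPM from the 8-library mean, per library, for the mitochondrially encoded members and the nuclear members of each complex; labelled knockout libraries stand left of WT libraries and the marker shape gives the replicate number. Labelled knockout 3 is lowest in most groups, at -0.26 for the mitochondrially encoded members, and WT 3 is above 0 in every group, at 0.25 for the mitochondrially encoded members.

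The mitochondrially encoded RNAs were by far the most abundant of the chain. Per length, computed from the counts and the summed exon length and rescaled to a common total (TPM), their median level was 1804.1 over the 8 libraries, against 123.9 for the nuclear members. The summed exon length can exceed that of a single transcript, which lowers the TPM of some nuclear members. It is 5628 bases for Ndufb2, against 455 bases for its chosen transcript, while both lengths are 784 bases for mt-Co3. How much this adds to the gap between the genomes was not tested. mt-Co3, the third core subunit of cytochrome c oxidase, stood highest at 16810.5 TPM, followed by mt-Atp6, the proton channel subunit of the synthase, at 13907.8 TPM. The catalytic oxidase subunits mt-Co1 and mt-Co2 had 9537.7 and 5893.9 TPM, and mt-Cytb, cytochrome b of complex III, had 4184.8 TPM. The complex I genes were the low end, from mt-Nd1 at 2315.9 TPM down to mt-Nd4l at 480.8 TPM. mt-Nd6, the one member on the light strand, had 962.8 TPM, which may include RNA of the opposite strand. This level was close to mt-Nd5 at 937.7 TPM, with an SD of 59.1 TPM for mt-Nd5 and 71.7 TPM for mt-Nd6 in the labelled knockout libraries. The neighbours mt-Nd3, mt-Nd2 and mt-Nd4l, at 514.0, 510.8 and 480.8 TPM, also differed by less than their spread, and so did mt-Atp8 from mt-Nd6. Summed over the 13 genes the level was 55382.6 ± 5260 TPM in labelled knockout and 62486.4 ± 1950 TPM in WT libraries (SD, n = 4 each).

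All 13 mitochondrially encoded members had lower fitted values in the labelled knockout libraries, from -0.35 for mt-Co2 to -0.08 for mt-Atp8 on the log2 scale. They took 2.06, 2.72, 2.09 and 2.37% of the counts in labelled knockout 1 to 4, against 2.65, 2.82, 2.94 and 2.66% in WT 1 to 4. Labelled knockout 2 lay within the WT values and the other 3 below them. For 7 of the 13 the unadjusted p was under 0.05 (edgeR), where 7.11% of all genes tested were lower at that p. Labelled knockout and WT libraries did not overlap for mt-Co2 and mt-Cytb, and no member of the nuclear genome was lower without overlap, where 4.17% of all genes tested were.

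mt-Co2 (chromosome M, 7013 to 7696 on the plus strand of GRCm38) had 1517.9, 1935.8, 1518.7 and 1680.0 CPM in labelled knockout 1 to 4, against 1963.2, 2164.9, 2382.4 and 1978.8 CPM in WT 1 to 4. The highest labelled knockout library was just below the lowest WT library, and the log2 fold change was -0.35 ± 0.11 (SE; adjusted p = 0.391, edgeR). mt-Cytb (chromosome M, 14145 to 15288, plus strand) had 1798.1, 2331.6, 1871.0 and 2073.5 CPM in labelled knockout 1 to 4, against 2372.0, 2477.7, 2675.7 and 2361.9 CPM in WT 1 to 4. Here too labelled knockout 2 came close to the lowest WT library, with a log2 fold change of -0.29 ± 0.10 (SE; adjusted p = 0.391, edgeR). mt-Co3 (chromosome M, 8607 to 9390, plus strand) had 4940.1, 6668.8, 4848.0 and 5904.4 CPM in labelled knockout 1 to 4, against 6373.6, 6652.6, 7203.6 and 6903.8 CPM in WT 1 to 4. Labelled knockout 2 lay inside the WT range. The log2 fold change of mt-Co3 was -0.28 ± 0.11, that of mt-Atp6 was -0.27 ± 0.10 and that of mt-Co1 was -0.26 ± 0.11 (SE), and the groups overlapped for each.

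Among the complex I subunits of mitochondrial DNA, mt-Nd1 (chromosome M, 2751 to 3707, plus strand), which lies next to the ubiquinone channel, had the lowest log2 fold change at -0.29 ± 0.11 (SE). It had 846.8, 1106.7, 836.7 and 956.2 CPM in labelled knockout 1 to 4, against 1072.7, 1191.6, 1213.0 and 1093.3 CPM in WT 1 to 4. The other 6 ranged from -0.23 for mt-Nd4l to -0.17 for mt-Nd5, with mt-Nd6, annotated on the light strand, at -0.22 ± 0.12 (SE). The counting recorded no strand setting, so fragments of heavy-strand RNA across mt-Nd6 may be counted in it. Its value therefore does not compare the strands. mt-Nd6 and mt-Nd5 also overlap by 14 bases on opposite strands. The 2 mitochondrial ribosomal RNAs, which are no members, had log2 fold changes of -0.15 ± 0.14 for mt-Rnr1 and -0.10 ± 0.09 for mt-Rnr2 (SE).

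**Figure D2:**
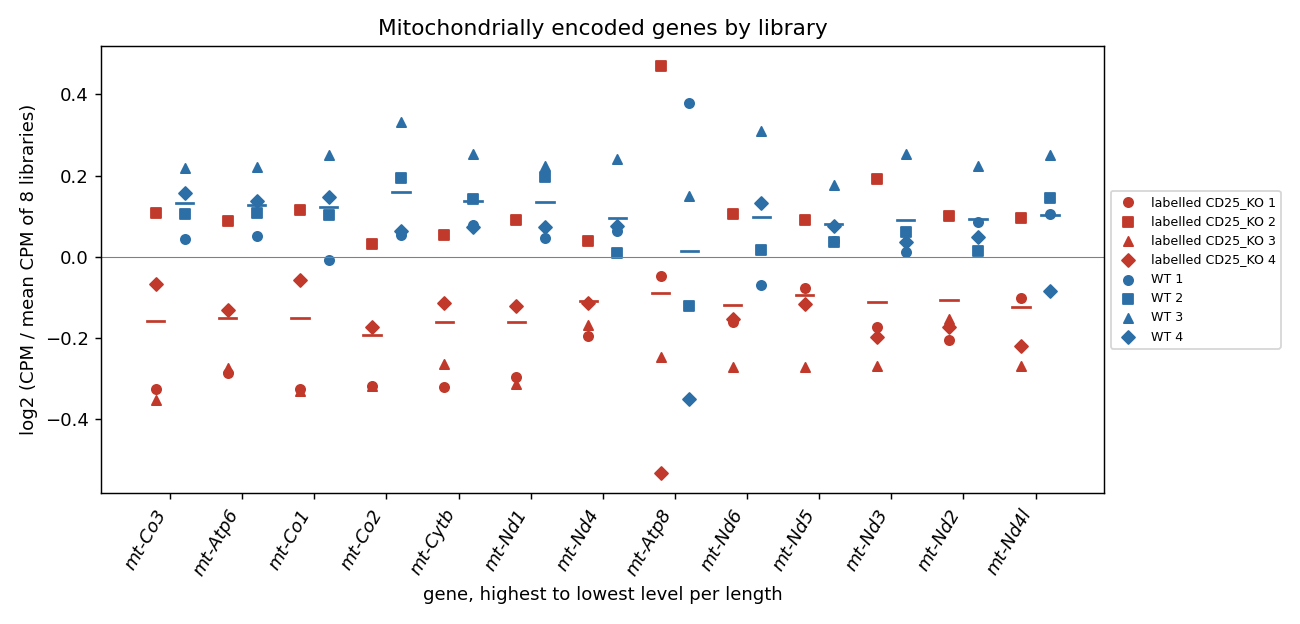
Each mitochondrially encoded gene's CPM in each library relative to its mean over the 8 libraries (log2), ordered from the highest to the lowest level per length, with labelled knockout libraries left of WT libraries and group means as bars. Labelled knockout 1 and 3 are lowest for most genes and labelled knockout 2 lies among the WT libraries; mt-Atp8 spreads most, from 70.7 CPM in labelled knockout 4 to 141.6 CPM in labelled knockout 2.

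mt-Atp8, the small membrane subunit of the synthase, had the fold change nearest 0 among the 13. It had 99.0, 141.6, 86.2 and 70.7 CPM in labelled knockout 1 to 4, against 133.0, 94.1, 113.4 and 80.3 CPM in WT 1 to 4. Its log2 fold change was -0.08 ± 0.22 (SE), which left the groups fully overlapping, while mt-Atp6 on the same RNA had -0.27 ± 0.10 (SE). The end of mt-Atp8 is also the start of mt-Atp6: 43 bases, from 7927 to 7969 of chromosome M, belong to both genes. The last bases of mt-Atp8 are shown here because of this shared part (chrM:7897-7969, plus strand of GRCm38, GENCODE M21), with the bases shared with mt-Atp6 in capitals.
mt-Atp8: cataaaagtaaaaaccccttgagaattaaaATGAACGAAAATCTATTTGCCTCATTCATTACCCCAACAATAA
mt-Atp6 and mt-Co3 share 1 base, and mt-Nd4l and mt-Nd4 share 7. How fragments in shared bases were assigned is not recorded in the file header, and its part in the low count of mt-Atp8 was not tested.

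Sequence shared with other genes makes the levels of some members uncertain, because each alignment of a fragment with several was counted. In 9 mitochondrial and 37 nuclear members a stretch of at least 100 bases matched another gene at 95% identity or more. For some nuclear members the match lay in a gene that is no copy of the member, such as Dynll1 for Ndufc1 and Gabpa for Atp5j. The copy Gm28437 had 101% of the CPM of mt-Co3, Gm10925 had 113% of the CPM of mt-Atp6, and Gm10222 had 99.5% of the CPM of mt-Nd4l. mt-Nd1 and mt-Nd6 had no such match. Over the members without a match the median log2 fold change was -0.25 for the mitochondrial and -0.24 for the nuclear genes.

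Complex I oxidises NADH, and the median log2 fold change of its 36 tested nuclear members was -0.34, with 31 lower, where 49.6% of all genes tested were. At an unadjusted p under 0.05 (edgeR), 21 were lower, where 7.11% of all genes tested were. The lowest fold changes were in supernumerary subunits, the small proteins around the catalytic core. All 10 Ndufb genes, accessory subunits of the membrane arm, were lower with a median of -0.33, and 11 of the 13 tested Ndufa genes were lower with a median of -0.36. The Ndufs and Ndufv genes, which include the iron-sulfur and flavin core of the matrix arm, had a median of -0.18, with 8 of 11 lower. Whether these groups differ was not tested.

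Ndufb11 (chromosome X, 20615326 to 20617619, minus strand), a membrane arm subunit, had 93.2, 123.2, 93.8 and 111.9 CPM in labelled knockout 1 to 4, against 117.7, 158.6, 160.2 and 138.3 CPM in WT 1 to 4. Labelled knockout 2 exceeded WT 1, and the log2 fold change was -0.45 ± 0.13 (SE; adjusted p = 0.391, edgeR). Ndufa12 (chromosome 10, 94198720 to 94221443, plus strand), an accessory subunit of the matrix arm, had 49.6, 66.9, 46.3 and 60.1 CPM in labelled knockout 1 to 4, against 65.6, 82.4, 87.2 and 73.5 CPM in WT 1 to 4. On the log2 scale it differed by -0.47 ± 0.15 (SE), again with labelled knockout 2 above WT 1. Ndufa2 (chromosome 18, 36742332 to 36744557, minus strand), an accessory subunit of the NADH-oxidising end, had the lowest log2 fold change in complex I at -0.50 ± 0.17 (SE). It had 70.5, 92.3, 63.2 and 83.6 CPM in labelled knockout 1 to 4, against 83.4, 125.0, 128.8 and 99.2 CPM in WT 1 to 4, so WT 1 lay within the labelled knockout range. Transcripts of Ndufb11 and Ndufa12 share sequence with other genes, whose summed CPM was 104% of that of Ndufb11 and 34.0% of that of Ndufa12.

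Several catalytic subunits of complex I had log2 fold changes near 0. Ndufs3 had a log2 fold change of 0.08 ± 0.11 and Ndufs7 had 0.01 ± 0.12 (SE). The flavin-binding subunit Ndufv1 had -0.04 ± 0.09 (SE). Ndufs8, an iron-sulfur subunit and the highest nuclear complex I gene per length at 433.3 TPM, had 239.4 ± 22.9 CPM in labelled knockout and 285.7 ± 40.6 CPM in WT libraries (SD, n = 4 each). Its log2 fold change was -0.25 ± 0.12 (SE). Ndufb2 was the lowest tested per length, with 7.13 ± 0.633 TPM in labelled knockout and 7.15 ± 1.09 TPM in WT libraries (SD, n = 4 each). This rank rests on its summed exon length of 5628 bases, where its chosen transcript has 455 bases.

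Complex II, which also belongs to the citric acid cycle, is all nuclear, and its 4 genes had log2 fold changes between -0.25 and -0.08. Sdhb, the iron-sulfur subunit, had 253.6, 283.1, 234.3 and 284.8 CPM in labelled knockout 1 to 4, against 264.2, 319.5, 348.8 and 322.4 CPM in WT 1 to 4. WT 1 lay within the labelled knockout range, and the log2 fold change was -0.25 ± 0.11 (SE; adjusted p = 0.393, edgeR). The membrane anchors Sdhc and Sdhd had -0.24 ± 0.13 and -0.20 ± 0.09 (SE). Sdha, the flavoprotein that oxidises succinate, had 398.4, 382.2, 375.1 and 377.6 CPM in labelled knockout 1 to 4, against 427.3, 425.5, 399.2 and 365.8 CPM in WT 1 to 4. Its log2 fold change was -0.08 ± 0.08 (SE).

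In complex III the small nuclear subunits, mt-Cytb and Uqcrc2 had log2 fold changes below 0, and Uqcrc1 and Uqcrfs1 had fold changes above 0, without a test of the difference between them. The small subunits Uqcr10 and Uqcr11 had log2 fold changes of -0.53 ± 0.17 and -0.52 ± 0.17 (SE), both with an adjusted p of 0.391 (edgeR). Uqcr10 (chromosome 11, 4701973 to 4704342, minus strand) had 62.8, 87.1, 58.2 and 73.3 CPM in labelled knockout 1 to 4, against 78.8, 116.1, 117.9 and 92.3 CPM in WT 1 to 4. Uqcr11 had 36.6, 50.3, 33.9 and 42.4 CPM in labelled knockout 1 to 4, against 47.7, 66.6, 68.0 and 51.8 CPM in WT 1 to 4. In both genes labelled knockout 2 stood above WT 1 and below the other WT libraries. The remaining small subunits Uqcrh, Uqcrb and Uqcrq had log2 fold changes of -0.35, -0.32 and -0.24.

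The large core subunit Uqcrc1 (chromosome 9, 108936633 to 108949623, plus strand) went the other way. It had 367.2, 352.4, 335.9 and 349.5 CPM in labelled knockout 1 to 4, against 228.6, 136.6, 239.7 and 334.8 CPM in WT 1 to 4. The groups did not overlap, which for higher values held for 2.62% of all genes tested, but WT 4 stood just below labelled knockout 3. The log2 fold change was 0.58 ± 0.22 (SE; adjusted p = 0.391, edgeR). The Rieske iron-sulfur protein Uqcrfs1 had 107.5, 43.8, 45.7 and 63.0 CPM in labelled knockout 1 to 4, against 24.8, 14.8, 31.9 and 118.8 CPM in WT 1 to 4. Without WT 4 its groups would not overlap, and with it the log2 fold change was 0.45 ± 0.59 (SE). The other core subunit, Uqcrc2, had -0.17 ± 0.10 (SE).

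In complex IV, which reduces oxygen to water, the 3 mitochondrial core subunits had a median log2 fold change of -0.28 and the 15 tested nuclear members one of -0.23, with 11 of these lower. Cox6b1, which faces cytochrome c, had 128.8, 186.2, 122.5 and 161.4 CPM in labelled knockout 1 to 4, against 165.5, 233.4, 254.2 and 200.1 CPM in WT 1 to 4. Its log2 fold change was -0.51 ± 0.17 (SE; adjusted p = 0.391, edgeR), and WT 1 was again the WT library that overlapped. The structural subunits Cox7a2 and Cox7b had -0.47 ± 0.16 and -0.40 ± 0.15 (SE). Cox5a, a subunit of the matrix side, had 65.5, 25.3, 28.9 and 35.9 CPM in labelled knockout 1 to 4, against 15.6, 6.75, 17.6 and 70.8 CPM in WT 1 to 4, the same pattern as Uqcrfs1. The fitted log2 fold change was 0.49 ± 0.63 (SE).

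The isoforms of complex IV that predominated in these cells were the ubiquitous ones. Cox4i1 had 428.4 ± 22.6 TPM in labelled knockout and 468.5 ± 42.1 TPM in WT libraries, while Cox4i2, known from lung, had 1.11 ± 0.613 and 1.04 ± 0.138 TPM (SD, n = 4 each). Cox6a1 had 594.9 ± 37.1 TPM in labelled knockout and 515.4 ± 141 TPM in WT libraries, and the muscle form Cox6a2 had 40.6 ± 6.69 and 46.0 ± 12.3 TPM (SD, n = 4 each). The muscle form Cox7a1 averaged 2.01 TPM over the 8 libraries beside 296.7 TPM for Cox7a2. Cox7b2, Cox8b and Cox8c, known from testis or muscle, and Ndufa4l2, known as a hypoxia target, stayed below the count filter and were not tested, and the second identifier of Atp5o had 0 counts. No isoform passed the test between groups. In complex V, the 3 genes Atp5g1, Atp5g2 and Atp5g3, which encode the same mature ring subunit, had log2 fold changes of -0.39 ± 0.15, -0.42 ± 0.15 and 0.01 ± 0.15 (SE). The 19 genes sharing a stretch with Atp5g1, of which 2 are pseudogenes, summed to 805% of its CPM, with Bclaf1 the highest. The 2 pseudogenes that match Atp5g2 summed to 193% of its CPM.

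The members of complex V are given by role, without a test between the roles. All nuclear members of the complex took 0.432 ± 0.0264% of the counts in labelled knockout and 0.424 ± 0.0492% in WT libraries (SD, n = 4 each), although 13 of the 17 tested were lower. The F1 subunits, which form the catalytic head and its central stalk, did not share a direction. Atp5a1, the alpha subunit and the highest nuclear member per length at 837.5 TPM, had a log2 fold change of -0.01 ± 0.08 (SE). The gamma subunit Atp5c1 had -0.20 ± 0.10, the beta subunit Atp5b had 0.61 ± 0.34, the delta subunit Atp5d had 0.64 ± 0.42 and the epsilon subunit Atp5e had -0.45 ± 0.14 (SE). The genes of the peripheral stalk and membrane part were mostly lower. Atp5j2 had 96.2, 127.7, 92.1 and 113.3 CPM in labelled knockout 1 to 4, against 122.9, 156.8, 174.4 and 135.6 CPM in WT 1 to 4. Its log2 fold change was -0.46 ± 0.14 (SE; adjusted p = 0.391, edgeR), with labelled knockout 2 above WT 1 only. Atp5mpl, a small synthase-associated protein, had -0.51 ± 0.16, Atp5k had -0.51 ± 0.19, and the peripheral stalk subunits Atp5h, Atp5j and Atp5o had -0.40 ± 0.13, -0.38 ± 0.15 and -0.37 ± 0.14 (SE). Atp5s, the low member that is no subunit, was higher, at 10.2 ± 0.982 CPM in labelled knockout and 7.85 ± 1.25 CPM in WT libraries (SD, n = 4 each), with a log2 fold change of 0.37 ± 0.16 (SE; adjusted p = 0.391, edgeR).

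**Figure D3:**
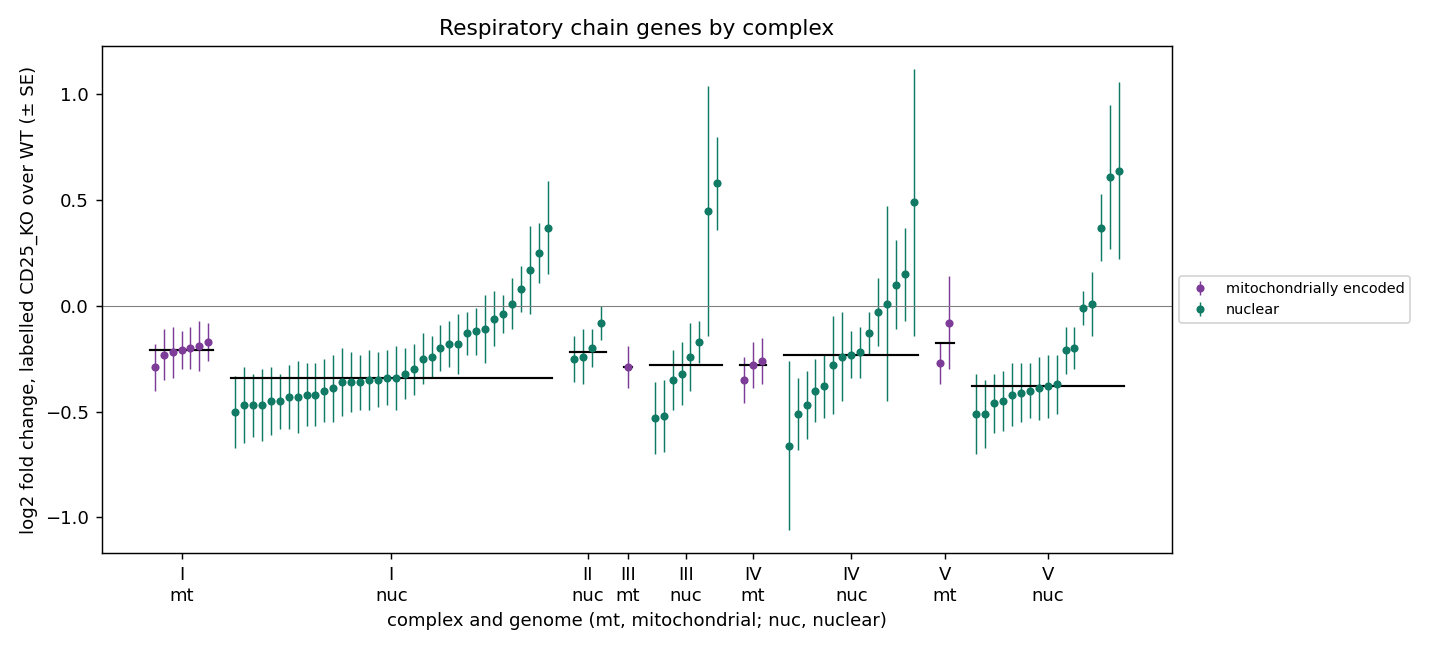
Fitted log2 fold change, labelled knockout over WT, with its SE for each of the 93 tested members, grouped by complex and genome; black lines are group medians. The mitochondrially encoded genes lie between -0.35 and -0.08, while the nuclear genes spread from -0.66 to 0.64 with a few members of complexes I, III, IV and V above 0.

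Set side by side within a complex, the medians of the mitochondrial and nuclear members lay within 0.05 of each other in complexes III and IV and were 0.13 and 0.20 apart in complexes I and V. In complex I the medians were -0.21 for the mitochondrial and -0.34 for the nuclear members, in complex III -0.29 and -0.28, in complex IV -0.28 and -0.23, and in complex V -0.18 and -0.38. The mitochondrial side is 1 gene in complex III. In complex V it is 2 genes, mt-Atp6 at -0.27 ± 0.10 and the widely spread mt-Atp8 at -0.08 ± 0.22 (SE). The mitochondrial minus nuclear difference was 0.06 over all members. Library by library, the mitochondrial minus nuclear score was -0.04, 0.05, 0.03 and -0.14 in labelled knockout 1 to 4, against 0.19, 0.04, -0.00 and -0.13 in WT 1 to 4, so the lowest values stood in replicate 4 of both groups. The log2 fold changes of the 13 mitochondrial genes covered a narrower range, -0.35 to -0.08, than those of the 80 nuclear members tested, -0.66 to 0.64. The SE of single genes ran from 0.09 to 0.22 in the mitochondrial and from 0.08 to 0.63 in the nuclear members.

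Much of the spread among nuclear members came with a difference between WT 4 and WT 2. These members were picked out after their values were seen. In 9 of the 80 tested nuclear members WT 4 was more than 2-fold above WT 2: Cox5a by 10.5-fold, Uqcrfs1 by 8.0-fold, Atp5d by 5.28-fold, Atp5b by 3.98-fold, Uqcrc1 by 2.45-fold, and Ndufa10, Cox8a, Ndufa6 and Cox6a1 by 2.11-fold to 2.37-fold. Such a gap was not particular to the members: among genes of at least 5 CPM it was present in 11.5% of the nuclear members and in 17.5% of 8936 protein-coding genes. All 9 had a positive fitted log2 fold change, from 0.10 to 0.64, while 65 of the 71 others were below 0. The beta subunit Atp5b, which carries the catalytic sites, had 1249.8, 947.1, 1065.2 and 1233.4 CPM in labelled knockout 1 to 4, against 607.9, 338.4, 645.1 and 1345.5 CPM in WT 1 to 4. Atp5d, part of the central stalk, had 200.7, 118.9, 139.8 and 153.0 CPM in labelled knockout 1 to 4, against 69.2, 38.0, 85.6 and 200.3 CPM in WT 1 to 4. In each of Cox5a, Uqcrfs1, Atp5d and Atp5b, WT 2 was the lowest library, WT 1 and 3 were also low, and WT 4 was at or near the top.

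**Figure D4:**
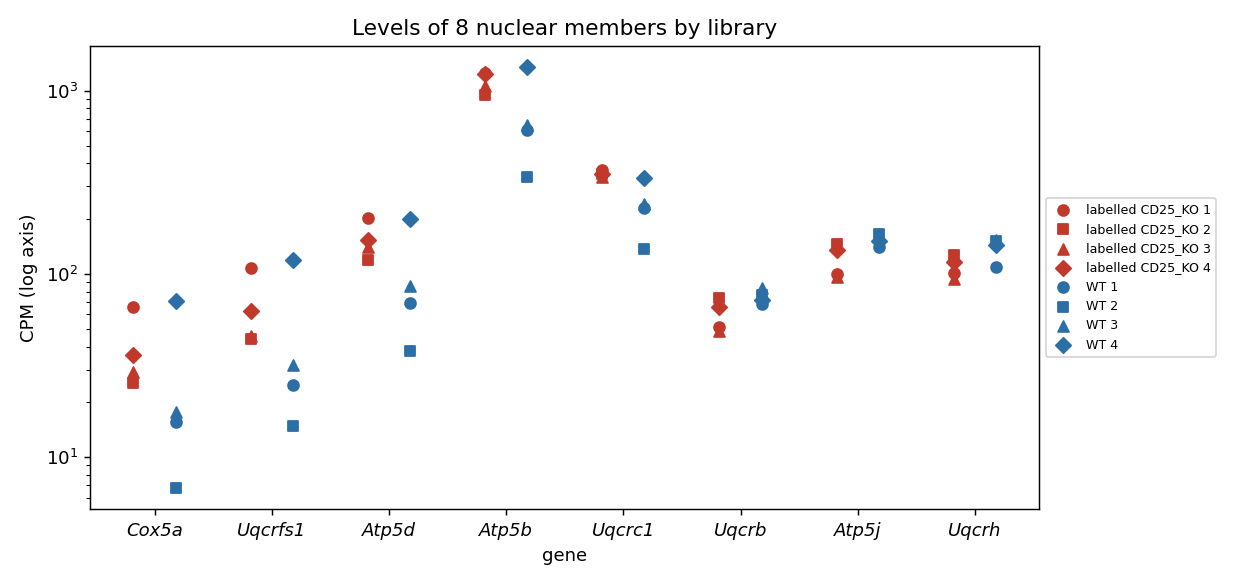
CPM on a log axis in each library for 5 members with WT 4 far above WT 2 (Cox5a, Uqcrfs1, Atp5d, Atp5b, Uqcrc1) and 3 members without such a gap (Uqcrb, Atp5j, Uqcrh); labelled knockout libraries stand left of WT libraries. In Cox5a the WT libraries run from 6.75 CPM (WT 2) to 70.8 CPM (WT 4), while in Uqcrb they run from 68.4 to 83.1 CPM.

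Each of these 9 transcripts has a stretch very rich in G and C, as have many others. The richest 100-base stretch of the 9 transcripts held 73 to 81% G and C (median 77%), against 51 to 80% (median 68%) in the other 71 nuclear members and 37 to 52% in the mitochondrial members. The ranges of the 9 and the 71 overlap, the median over the 8936 protein-coding genes was 72%, and 3523 of those reached 75%. The sequences shown were picked from both ends and cover the coding sequence only, not the whole transcript as above. They are the richest 100 bases in the 4 members with the largest gap between WT 4 and WT 2. The same follows for 3 members without a gap, chosen for the least GC there, with G and C in capitals (GENCODE M21 transcripts, GRCm38).
Cox5a, bases 6 to 105 of the coding sequence, chromosome 9, plus strand: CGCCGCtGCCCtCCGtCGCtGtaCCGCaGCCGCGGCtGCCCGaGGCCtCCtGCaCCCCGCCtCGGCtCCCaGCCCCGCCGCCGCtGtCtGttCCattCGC
Uqcrfs1, bases 12 to 111, chromosome 13, minus strand: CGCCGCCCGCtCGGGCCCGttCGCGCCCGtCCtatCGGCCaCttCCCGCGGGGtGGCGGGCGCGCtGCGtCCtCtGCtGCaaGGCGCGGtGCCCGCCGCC
Atp5d, bases 6 to 105, chromosome 10, plus strand: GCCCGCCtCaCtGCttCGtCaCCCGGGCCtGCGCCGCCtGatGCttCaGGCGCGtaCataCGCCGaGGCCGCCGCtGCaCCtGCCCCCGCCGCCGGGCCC
Atp5b, bases 15 to 114, chromosome 10, plus strand: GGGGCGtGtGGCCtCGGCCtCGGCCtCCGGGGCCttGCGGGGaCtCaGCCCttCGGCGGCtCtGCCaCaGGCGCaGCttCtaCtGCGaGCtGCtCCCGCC
Uqcrb, bases 2 to 101, chromosome 13, minus strand: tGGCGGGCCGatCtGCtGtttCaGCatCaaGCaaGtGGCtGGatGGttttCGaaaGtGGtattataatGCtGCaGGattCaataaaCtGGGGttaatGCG
Atp5j, bases 3 to 102, chromosome 16, minus strand: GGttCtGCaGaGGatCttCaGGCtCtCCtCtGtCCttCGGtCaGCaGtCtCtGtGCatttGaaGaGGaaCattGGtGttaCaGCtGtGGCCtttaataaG
Uqcrh, bases 75 to 174, chromosome 4, minus strand: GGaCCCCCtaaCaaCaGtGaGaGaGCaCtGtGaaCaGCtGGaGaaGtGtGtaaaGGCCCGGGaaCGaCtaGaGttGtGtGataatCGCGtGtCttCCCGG
The first 4 stretches hold 77, 81, 77 and 75% G and C and the last 3 hold 47, 49 and 54%. Over the whole transcript, the richest stretch of Uqcrb held 59%, that of Atp5j 80% and that of Uqcrh 56%. Atp5j thus has a GC-rich stretch outside its coding sequence without a gap between WT 4 and WT 2. In the first 4 genes the stretch lies at the start of the coding sequence, which in these proteins encodes the presequence for import.

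Across 78 nuclear members of at least 5 CPM, the log2 difference of WT 4 minus WT 2 had a Spearman correlation of 0.54 with the GC of the richest stretch, and the log2 fold change between groups one of 0.47. Over 8936 protein-coding genes of that level the same correlations were 0.57 and 0.57. These are descriptions across genes that share their libraries, and genes are not independent replicates. The 16 members whose richest stretch reached 75% had a median log2 fold change of 0.12, and the other 62 had one of -0.35, with 58 below 0. Over all 8936 genes the medians were 0.27 for those reaching 75% and -0.06 for the other 5413, of which 3321 were below 0. GC over the whole transcript had correlations of -0.05 and 0.02 in the members, against 0.20 and 0.37 over all genes. The members are also short, with a median transcript of 786 bases against 2870 bases, and their log2 fold change correlated with length at 0.49, against 0.17 over all genes. The 13 mitochondrial genes have no GC-rich stretch, and WT 4 and WT 2 were close to each other in them.

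**Figure D5:**
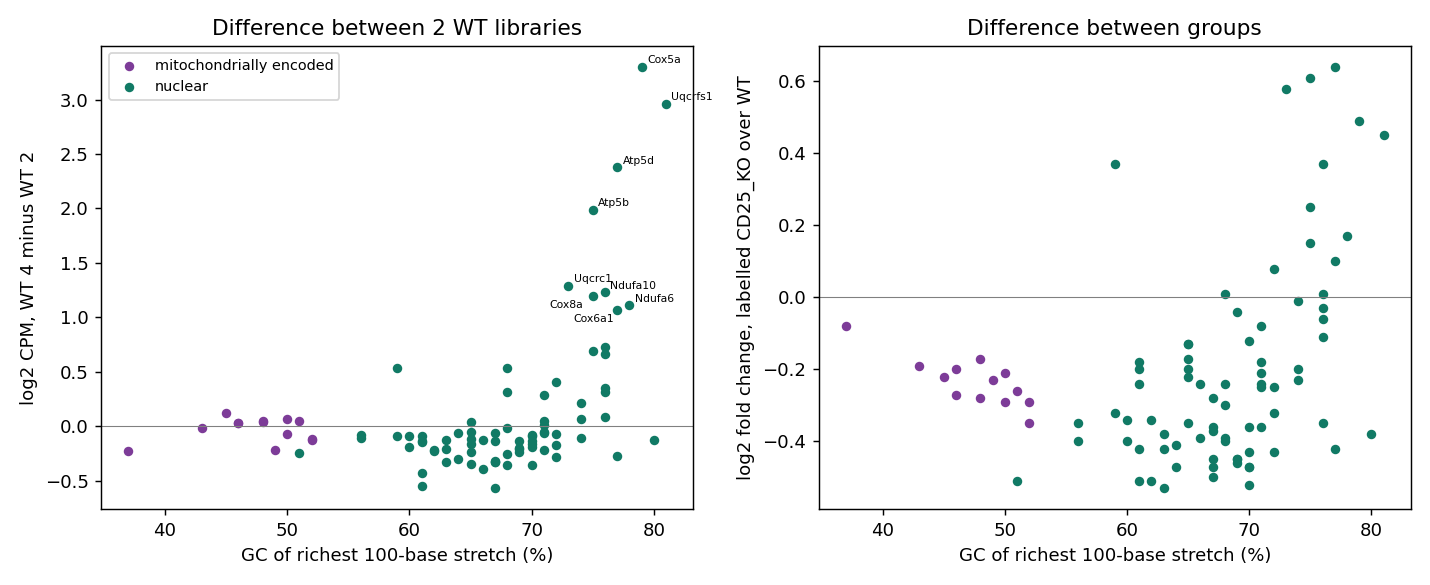
GC content of the richest 100-base stretch of the transcript (x) against the log2 difference between WT 4 and WT 2 (left) and the log2 fold change of labelled knockout over WT (right), one point per member of at least 5 CPM in WT. Members above 1 on the left lie at 73% GC or more, and the mitochondrially encoded genes lie at 37 to 52%.

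The calls differed between fits on fewer or adjusted libraries, and what sets them was not tested. Without WT 4, Atp5b and Atp5d rose in the labelled knockout libraries, by 1.08 ± 0.21 and 1.25 ± 0.27 on the log2 scale (SE; adjusted p = 0.0493 for both, edgeR), with 1.84% of all genes called higher. With WT 4 left out and Y-linked RNA as a covariate, which changes 2 choices together, 41 of the 93 members passed, 34 lower and 7 higher, where 4.04% of all genes tested were called lower and 11.9% higher. The 34 comprised mt-Co2, mt-Nd1 and mt-Cytb, 15 nuclear members of complex I, Sdhc, 2 of complex III, 4 of complex IV and 9 of complex V. In that fit Atp5k, at -0.67 ± 0.15 (SE; adjusted p = 0.0175), was lowest, mt-Co2 had -0.42 ± 0.11 (SE; adjusted p = 0.0308) and Cox5a had 1.76 ± 0.29 (SE; adjusted p = 0.00508). With all 8 libraries and the covariate, 0 members passed, the medians were -0.25 for the mitochondrial and -0.36 for the nuclear members, and the smallest adjusted p was 0.069. With the trend on the richest stretch removed per library, the mitochondrial median was -0.06, with 10 of 13 lower, and the nuclear median was -0.25. With that trend removed and WT 4 left out, the mitochondrial median was 0.12, with 1 of 13 lower, so the direction of the mitochondrial genes depends on this setting, and 4 members passed where 2.19% of all genes tested did. These were Ndufa13 (lower) and Uqcrc1, Atp5b and Atp5d (higher).

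The members were also read separately in the libraries with and without Y-linked RNA. Among the 5 libraries without it, the 2 labelled knockout libraries were below all 3 WT libraries for 12 of the 13 mitochondrial and 56 of the 80 nuclear members, where this held for 21.4% of all genes tested. For 2 nuclear members they were above all 3, where this held for 15.4%. Among the 3 libraries with it, both labelled knockout libraries were below the single WT library for 5 of the 13 mitochondrial and 57 of the 80 nuclear members, where this held for 39.9% of all genes tested. For 21 of the 80 nuclear members both were above it, where this held for 39.6%. The difference between these sets of libraries was not tested.

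RNA of some other cell types and of dividing cells was lower in the libraries with the lowest member scores. Erythroid markers summed to 559.6 to 2632.9 CPM in labelled knockout and 3387.3 to 9012.5 CPM in WT libraries, with 10 of 11 tested markers lower. NK and innate lymphoid markers summed to 9.54 to 34.4 CPM in labelled knockout and 37.1 to 50.1 CPM in WT libraries (8 of 9 lower), neutrophil markers to 125.3 to 516.5 CPM and 275.8 to 587.7 CPM (13 of 14 lower), and monocyte markers to 38.6 to 162.7 CPM and 127.1 to 222.2 CPM (7 of 9 lower). No marker of these lists was at 0 in every library. Genes of G2 and mitosis summed to 1354.6 to 3127.7 CPM in labelled knockout and 3236.7 to 3753.9 CPM in WT libraries, with 14 of 15 lower. The lowest member scores had been those of labelled knockout 1 and 3, and both were lowest in these 5 lists too. Labelled knockout 4 was low in the mitochondrial score, at -0.15, with an erythroid score of 0.23 and a G2 and mitosis score of 0.18. Markers of T cells and plasma cells had no common direction. T cell markers summed to 21.8 to 33.5 CPM in labelled knockout and 29.2 to 38.2 CPM in WT libraries (3 of 6 tested lower, median log2 fold change 0.16), and plasma cell markers to 500.1 to 620.3 CPM and 486.5 to 564.6 CPM (2 of 5 tested lower, median 0.53). The part of these cells and of the cell cycle in the member values was not tested.

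Other mitochondrial gene groups had medians nearer 0 or above it, and their difference from the members was not tested. The citric acid cycle enzymes had 8 of 17 members lower with a median log2 fold change of 0.03, and genes of protein import and mitochondrial mass had 7 of 18 lower with a median of 0.08. Assembly factors, which build the complexes but are not part of them, had 28 of 46 lower with a median of -0.07. Mitochondrial ribosomal proteins had 48 of 77 lower with a median of -0.11. Of these, 14 were lower at an unadjusted p under 0.05 (edgeR), where 7.11% of all genes tested were. Genes of mitochondrial DNA transcription and RNA handling had 10 of 24 lower with a median of 0.05, and 2 of 9 nuclear regulators were lower with a median of 0.19. No gene of these lists passed the adjusted p. The members with the smallest p included Ndufaf2, a complex I assembly factor, at 4.47 ± 0.684 CPM in labelled knockout and 6.72 ± 0.712 CPM in WT libraries (SD, n = 4 each), with a log2 fold change of -0.59 ± 0.17 (SE; adjusted p = 0.391, edgeR). Cytochrome c itself, Cycs, had -0.30 ± 0.12, Slc25a5, the ADP/ATP carrier, had -0.26 ± 0.09, and the coactivator Pprc1 had 0.68 ± 0.25 (SE). The 2 genes of mitochondrial DNA transcription and RNA handling with the smallest p went opposite ways. Fastk had 0.42 ± 0.15, and Slirp, which stabilises mitochondrial messenger RNAs, had -0.70 ± 0.27 (SE). Slirp was low, at 1.43 ± 0.544 CPM in labelled knockout and 2.33 ± 0.31 CPM in WT libraries (SD, n = 4 each).

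The promoters of the nuclear members carried known respiratory chain motifs more often than promoters in general, as a description without a test. Windows from 250 bases before to 50 bases after the start were held for 66 of the 84 nuclear symbols, as 71 windows (RefSeq, GRCm38.p6). The NRF1 motif GCGCANGCG, searched on both strands, stood in 29.6% of them against 6.25% of 32851 windows of all genes, the ETS motif ACCGGAAG, bound by GABP, in 8.45% against 2.30%, and the YY1 motif AAGATGGCG in 9.86% against 1.40%. Any of the 3 was present in 45.1% against 9.36%. One promoter per motif is shown, that of the member with the smallest p whose window holds it, with the motif in capitals.
Uqcr11, NRF1 motif, chr10:80406772-80407071, minus strand: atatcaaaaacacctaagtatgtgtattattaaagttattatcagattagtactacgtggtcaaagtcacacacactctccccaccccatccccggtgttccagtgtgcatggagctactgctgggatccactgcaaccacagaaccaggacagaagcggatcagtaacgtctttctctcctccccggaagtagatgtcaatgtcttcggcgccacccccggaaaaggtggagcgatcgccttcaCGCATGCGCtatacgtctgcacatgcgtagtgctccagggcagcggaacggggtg
Atp5e, ETS motif, chr2:174464052-174464351, minus strand: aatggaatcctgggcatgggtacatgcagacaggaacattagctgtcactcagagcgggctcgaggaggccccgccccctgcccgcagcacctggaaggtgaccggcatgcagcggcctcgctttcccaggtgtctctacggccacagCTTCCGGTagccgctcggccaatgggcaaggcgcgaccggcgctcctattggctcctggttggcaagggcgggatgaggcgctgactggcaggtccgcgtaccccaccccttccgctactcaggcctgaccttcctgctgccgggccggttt
Atp5j2, YY1 motif, chr5:145191492-145191791, minus strand: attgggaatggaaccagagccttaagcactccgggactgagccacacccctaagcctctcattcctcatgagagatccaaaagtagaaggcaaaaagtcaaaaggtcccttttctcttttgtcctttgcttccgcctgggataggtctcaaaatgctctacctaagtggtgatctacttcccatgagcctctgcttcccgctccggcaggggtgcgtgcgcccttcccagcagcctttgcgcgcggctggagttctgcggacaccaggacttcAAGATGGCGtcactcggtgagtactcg
The 3 genes had log2 fold changes of -0.52 ± 0.17, -0.45 ± 0.14 and -0.46 ± 0.14 (SE). A match describes these letters in this window and is not a measured binding site.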

How the data were processed

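RNA-seq of 8 mouse pro-B samples was used, 4 labelled CD25_KO and 4 labelled WT, grouped by sample title. Per the labels' protocols, Trizol was used for total RNA and a SMARTER mRNA-Seq kit for the libraries. The authors deposited raw counts of fragments per gene. Per the file headers they came from featureCounts 2.0.1 over exons of GENCODE M25 in paired mode, with every alignment of multi-mapping fragments counted and no strand setting recorded, so reads of overlapping and antisense genes are not separable. The submitters' processing notes name mm10, STAR 2.7.7a and, without a role, GATK 4.1.9.0. The deposited exon length (unit: other) was used only for levels per length. The table had 0 columns of other samples. Names, positions and transcripts were taken from GENCODE M21 on GRCm38, where 55227 identifiers were found and 260 were not.

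Counts were filtered with filterByExpr, scaled with TMM factors (0.962 to 1.03) and tested in edgeR 4.0.16 with the robust quasi-likelihood functions glmQLFit and glmQLFTest (two-sided; R 4.3.3). Genotype was the sole term, and p-values were adjusted by Benjamini-Hochberg over 18884 genes, with 0.05 as the threshold. The common biological coefficient of variation was 0.308. The SE was derived from the fold change and the quasi-likelihood F value. CPM are TMM-scaled, TPM are counts per exon length rescaled to a common total, and log2 CPM for scores used a prior count of 2. The GC of the richest 100-base stretch was read from 1 transcript a gene, and matches in other genes were searched with blastn 2.17.0 (95% identity over 100 bases). Sampling noise was exceeded in each of the 12 pairs of libraries of a group (chi-square per degree of freedom at least 25.2), so none was treated as a duplicate. The fits were tested on simulated data.

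The members and lists were chosen with earlier results of these data known, so lists are described by counts and medians with no test. Named were all mitochondrially encoded genes, the Sdh genes, the isoform pairs and Il2ra. In each other complex they were the 3 nuclear members with the smallest p and the highest and lowest by level. In other lists they were the 2 with the smallest p, not all of which are printed. Further members were named after their values were seen. Alternatives were other scaling (DESeq2 size factors, upper quartile, without the mitochondrially encoded genes), no or a stricter filter (5 CPM in 4 libraries), a replicate block, leaving out each library, DESeq2 1.42.0, limma-voom 3.58.1 with quality weights, no robust estimation, a GC trend removed (loess, span 0.5), and a Y-linked covariate (above 5 CPM), also without WT 4. Chosen after seeing the data were the trend on the richest stretch, also without WT 4, members without a match in another gene and members without a GC-rich stretch (75%). Some genes are not reported here.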

Additional observations from a re-analysis of the deposited data

Results flagged for a closer look

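Of 132 groups of 4 values looked at, 5 held a library far from the other 3 (by the gap to the nearest value over the whole range, Dixon's 95% limit), where chance gives about 1 in 20. Uqcrfs1 had 118.8 CPM in WT 4, against 24.8, 14.8 and 31.9 CPM in WT 1 to 3. It is one of the 9 nuclear members in which WT 4 was more than 2-fold above WT 2. mt-Nd2 had 266.2 CPM in labelled knockout 2, against 215.4, 223.3 and 220.2 CPM in labelled knockout 1, 3 and 4. Slirp, whose product binds mitochondrial messenger RNA, had 2.24 CPM in labelled knockout 2, against 1.07, 1.14 and 1.26 CPM in labelled knockout 1, 3 and 4. The score of the mitochondrially encoded members was 0.25 in WT 3, against 0.08, 0.09 and 0.06 in WT 1, 2 and 4. In the same library the large mitochondrial ribosomal RNA mt-Rnr2 was low, at 4865.3 CPM, against 5120.4, 5132.0 and 5096.0 CPM in WT 1, 2 and 4. No cause was tested for these values.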

How the results depend on the processing

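The nuclear median stayed below 0 under each alternative tried, and the mitochondrial median did too, except with the trend on the richest stretch removed and WT 4 left out. The share of counts was recomputed only with 1 library left out. With that trend removed, the mitochondrial median was -0.06, the mitochondrial minus nuclear difference was 0.19, and 24 members had an unadjusted p under 0.05. With that trend removed and WT 4 left out, the mitochondrial median was 0.12, the difference was 0.34 and 4 members passed the adjusted p. With WT 4 left out and Y-linked RNA as a covariate, 41 members passed. Besides mitochondrial genes, 153 of 12655 tested genes with a value had a richest stretch of 52% GC or less, the range of the mitochondrial genes, so few genes set the trend there. The cause of these changes was not tested.

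Leaving out 1 library at a time, the mitochondrial median ran from -0.27 to -0.17, the nuclear median from -0.36 to -0.22, their difference from 0.01 to 0.10, the difference in the share of counts from -0.594 to -0.376 percentage points, the members called from 0 to 2 (Atp5b and Atp5d without WT 4), and Il2ra from -0.27 to 0.01. Upper quartile factors moved the median of all genes to -0.09, with 0 members called.

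Whether the replicate numbers pair the samples could not be settled from the counts. Deviations of same-numbered libraries correlated at -0.11 to 0.32 and those of other numbers at -0.27 to 0.17. Of the 8 libraries, 4 correlated best with their own number. With the replicate block, 0 members passed, the mitochondrial median was -0.23 and the nuclear median -0.27.

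Of 1360 values of single named genes under alternatives, 1285 kept their direction and side of the threshold, 30 passed it newly and 45 changed sign. With the richest-stretch trend removed and WT 4 left out, the log2 fold changes that changed sign were 0.02 for mt-Nd1, 0.20 for mt-Nd2, mt-Nd3 and mt-Nd5, 0.06 for mt-Co1, 0.35 for mt-Atp8, 0.12 for mt-Atp6, 0.08 for mt-Co3, mt-Nd4l and Cox7a2l, 0.15 for mt-Nd4, 0.18 for mt-Nd6, 0.04 for mt-Cytb, -0.14 for Cox6a1, -0.24 for Atp5g3 and 0.10 for Il2ra. With that trend removed in all libraries they were 0.00 for mt-Nd2, 0.19 for mt-Atp8, 0.01 for mt-Nd5, -0.15 for Cox6a1, 0.02 for Cox7a2l, -0.04 for Cox8a, -0.23 for Atp5g3 and 0.16 for Il2ra. With the overall GC trend removed they were -0.25 for Cox6a1, -0.16 for Cox4i2 and -0.05 for Cox8a. Cox4i2 also had -0.30 with the covariate and without WT 4, -0.28 with the covariate, -0.12 with the replicate block and -0.07 with upper quartile factors, where Atp5g3 had -0.06. Atp5a1 had 0.01 with the covariate and without WT 4, 0.03 with no filter and 0.01 with the stricter filter. Leaving out 1 library, mt-Atp8 ran from -0.26 to 0.05, Ndufb2 from -0.16 to 0.02, Cox6a1 from -0.05 to 0.25, Cox4i2 from -0.44 to 0.21, Atp5a1 from -0.04 to 0.02 and Atp5g3 from -0.08 to 0.11.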
